A study of Mustela putorius furo and Mus musculus with 4 samples.

Results

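*Tm4sf1*, *Dio2*, *Entpd2*, *Actr3b*, *Nkain4*, *Col22a1*, *Hgf*, *Gng12* and *Rnd3* are 9 of the 17170 genes counted in single cells of the E18.0 mouse cortex. They were selected on these data, as genes far apart between a control library and a library that lacks the Hedgehog receptor component *Smo* in RG cells. Their difference between the libraries in RG cells is therefore given as a description, with no test, and their levels across cell classes describe where each gene is normally found. One library came from *hGFAP-Cre*;*Smo F/F* (*Smo*-cKO) cortex and one from control littermates, named *Smo F/F* in the paper but wild type in the labels. Both are labelled as strain CD1. In both, cells lining the lateral ventricle were labelled with an injection of the dye CellTrace Yellow at E17.0, and labelled cells were sorted at E18.0 and sequenced on the 10× Genomics droplet platform, which counts each captured transcript once through a unique molecular identifier (UMI). *hGFAP-Cre* recombines in RG cells of the medial cortex first and in most cortical RG cells later, so descendants born before recombination can keep *Smo*.

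RG cells are the neural stem cells of the cortex. They line the ventricle, produce pyramidal neurons (PyNs) through intermediate progenitors (PyN-IPCs), and near birth turn to basal multipotent progenitors (bMIPCs) and glia. Hedgehog ligands act on RG cells through SMO, which switches on the GLI transcription factors, and *Gli1* and *Ptch1* are their standard target genes.

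The genotype of a cell was read from its barcode suffix. The suffix with 10524 barcodes is the control and that with 7596 is the *Smo*-cKO, because these are the cell numbers the study states for the genotypes, and every direction rests on that. The control library held 52287727 UMIs (median 4040 per cell) and the *Smo*-cKO library 43283675 (median 4686.5), and 28 barcode sequences occurred in both. *Smo* had 66 UMIs in the control RG-like cells and 1 in the *Smo*-cKO RG-like cells, *Ptch1* had 96 and 8, and *Gli1* had 135 and 2 over all cells. *Prm1*, whose end sequence is part of several Cre transgenes, had 0 UMIs in the control and 10859 in the *Smo*-cKO library. *Xist* measured 244 CPM over all control cells and 0.262 CPM over all *Smo*-cKO cells, and Y-linked genes were seen in both, so the control library held cells of both sexes and the *Smo*-cKO library almost only male cells. CPM stands for the UMIs of a gene per 1000000 UMIs of the cells named. With 1 library per genotype, genotype, embryo, sex makeup and preparation cannot be told apart, no test between genotypes was possible, and every interval given is a 95% interval that covers counting error only.

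Cells were put into classes by the number of distinct marker genes with a UMI. RG-like cells had at least 8 of 15 RG markers, at most 1 marker each of PyN-IPCs, PyNs and bMIPCs, and fewer than 3 of 12 cycling markers, and the cycling RG-like cells had 3 or more. There were 938 control and 741 *Smo*-cKO RG-like cells, and 657 and 319 cycling RG-like cells. An RG-like cell showed a median of 12 RG markers in the control and 13 in the *Smo*-cKO, and a median of 0 markers of each other class. The gate itself uses these markers, so they are no independent check of the label. The *Smo*-cKO RG-like cells were deeper (median 6510 UMIs) than the control cells (4229). Shares of cells were therefore also given as the share expected if every cell held 2900 UMIs, a depth reached by 815 cells of the control and 693 of the *Smo*-cKO class. The other classes were 3856 and 1986 PyN-IPC-like, 2740 and 2545 PyN-like, 181 and 268 inhibitory-like, 97 and 172 microglia-like, 173 and 42 bMIPC-like, 40 and 18 endothelial-like, and 19 and 16 mural-like cells, in control and *Smo*-cKO, and 17.1% and 15.3% of cells stayed unassigned.

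In the control cortex, 8 of the 9 genes were at their highest in RG-like or cycling RG-like cells among the 7 classes with at least 50 control cells. The same was true of 27.2% of the 12206 genes with at least 50 UMIs in these classes, and the 9 genes had been picked for their values in RG cells, so the count is a description. The exception was *Rnd3*. Levels are in CPM of the class, and since they are not corrected for gene length they are compared within a gene and not between genes.

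*Hgf*, the secreted ligand of the MET receptor, had the highest ratio of RG-like to PyN-like level of the 9, although its wide interval overlapped those of *Dio2* and *Tm4sf1*. It measured 85.5 CPM (76.8 to 94.8) in RG-like cells and 74.0 CPM in cycling RG-like cells, while all 2740 PyN-like cells together held 2 UMIs (0.194 CPM). Its RG-like level was 440.4 times the PyN-like level (121 to 3651). *Entpd2*, an ectonucleotidase that splits extracellular ATP, had a similar profile. It measured 80.2 CPM (71.9 to 89.3) in RG-like, 58.7 CPM in cycling RG-like and 1.26 CPM in PyN-like cells, a ratio of RG-like to PyN-like cells of 63.6 (36.7 to 121). *Col22a1*, a collagen of the FACIT group that sits at tissue junctions, was the only one of the 9 with its highest control level in cycling RG-like cells, at 72.7 CPM (64.3 to 81.8) against 55.9 CPM (48.9 to 63.5) in RG-like cells. These intervals did not overlap, and PyN-like cells were at 1.55 CPM.

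*Dio2* and *Tm4sf1* were RG genes too, but sparse in the control. *Dio2* encodes the deiodinase that makes active thyroid hormone from its precursor inside the cell. It measured 22.2 CPM (17.9 to 27.2) in RG-like, 18.2 CPM in cycling RG-like, 11.3 CPM in bMIPC-like and 0.291 CPM in PyN-like cells. *Tm4sf1*, a small membrane protein with 4 membrane passes best known from endothelial cells and tumours, measured 10.3 CPM (7.43 to 13.8) in RG-like and 5.09 CPM (3.07 to 7.95) in cycling RG-like cells. These intervals overlapped. Its level was far higher in the 40 endothelial-like cells, at 214 CPM (167 to 271), and in the 19 mural-like cells, at 152 CPM (83.0 to 255), both too few cells to enter the order of classes.

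*Gng12*, a gamma subunit of heterotrimeric G proteins, was shared with several other classes. It measured 105 CPM (95.2 to 115) in RG-like, 98.7 CPM in cycling RG-like, 81.5 CPM in bMIPC-like and 70.7 CPM (55.1 to 89.3) in microglia-like cells, but 2.23 CPM in PyN-like cells. *Actr3b*, a paralog of the actin-related protein ARP3, was alike in RG-like (60.2 CPM), bMIPC-like (57.4 CPM) and cycling RG-like cells (52.0 CPM), with overlapping intervals, and lower in PyN-like cells (4.75 CPM). *Nkain4*, a membrane protein that interacts with the Na,K-ATPase, showed a graded profile, from 293 CPM (277 to 310) in RG-like through 226 CPM in cycling RG-like and 128 CPM in PyN-IPC-like to 72.1 CPM in PyN-like cells. Its RG-like level was 4.07 times the PyN-like level. *Rnd3*, an atypical small GTPase known for its part in the cytoskeleton and in neuronal migration, ran the other way. It measured 82.8 CPM (74.4 to 92.0) in RG-like, 99.4 CPM in PyN-IPC-like and 147 CPM (140 to 155) in PyN-like cells, and the RG-like level was 0.562 of the PyN-like level (0.498 to 0.632). Of the 6 pairs of neighbours in each gene's order of classes, between 3 and 5 had overlapping intervals for 8 genes, and 1 pair for *Nkain4*.

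**Figure D1:**
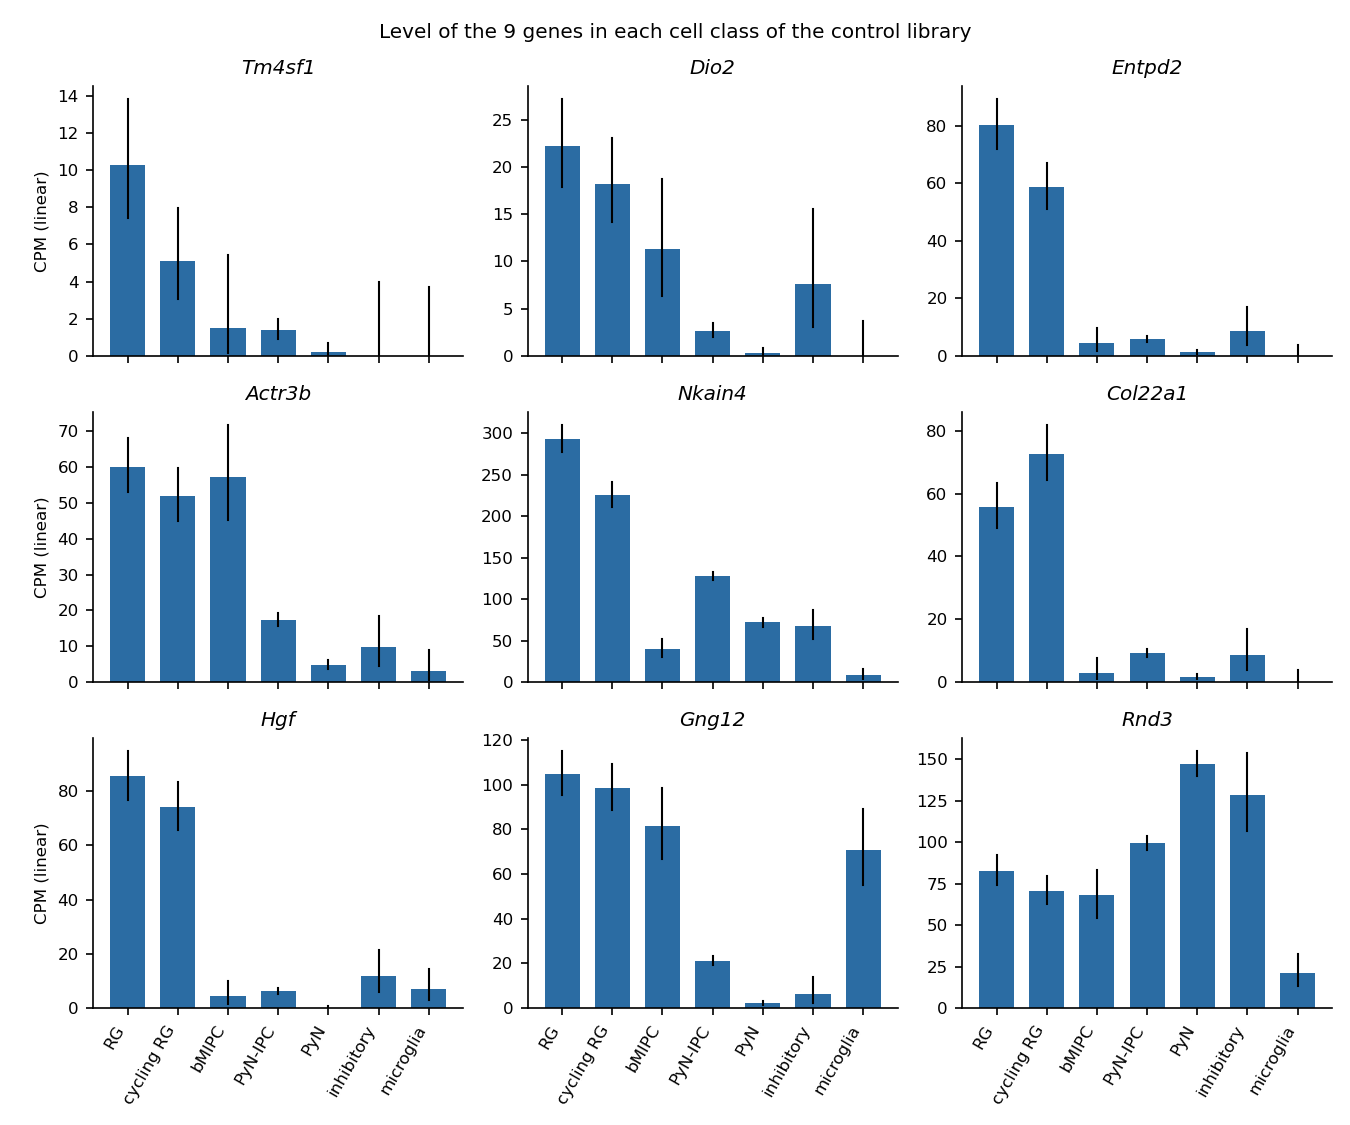
Level of each gene (CPM, linear axis from 0, each panel with its own scale) in 7 cell classes of the control library, with bars for the level and black lines for the exact Poisson 95% interval. *Hgf* and *Entpd2* are high in the RG and cycling RG bars and near 0 in PyN-like cells, *Nkain4* is graded, and *Rnd3* is highest in PyN-like cells at 147 CPM.

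*Dio2* and *Tm4sf1* were higher in the *Smo*-cKO RG-like cells. *Dio2* had 93 UMIs in control RG-like cells (22.2 CPM, 17.9 to 27.2) and 436 UMIs in the *Smo*-cKO ones (88.5 CPM, 80.4 to 97.3). The ratio of *Smo*-cKO to control was 3.99 (3.18 to 5.04). A *Dio2* UMI was seen in 8.21% of control and 35.8% of *Smo*-cKO RG-like cells, and in 5.77% and 20.2% at 2900 UMIs per cell, against 0.0712% and 0.223% of PyN-like cells at that depth. *Tm4sf1* had 43 UMIs in control (10.3 CPM) and 223 in *Smo*-cKO RG-like cells (45.3 CPM, 39.5 to 51.6), a ratio of 4.41 (3.17 to 6.27). At 2900 UMIs the shares of RG-like cells with a *Tm4sf1* UMI were 2.54% and 11.1%. The 8 endothelial markers (4 with a UMI in control and 6 in *Smo*-cKO) summed to 25.5 CPM in control and 9.75 CPM in *Smo*-cKO RG-like cells. The 8 mural or fibroblast markers (6 with a UMI in each library) summed to 60.4 and 71.9 CPM. The part of either cell type in the *Tm4sf1* difference was not tested. *Dio2* lies on chromosome 12 from 90724552 to 90738438 and *Tm4sf1* on chromosome 3 from 57285611 to 57301988, both on the minus strand (GRCm38, GENCODE M21).

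Among the 9568 genes with at least 50 UMIs in RG-like cells of both libraries together, 2.05% were at least 2-fold higher in *Smo*-cKO and 1.60% at least 2-fold lower, and the median log2 ratio was 0.01. The members were picked from these tails. *Tm4sf1* ranked 23rd and *Dio2* 25th from the top of the log2 ratios (1 CPM added), so 23 other genes were at least as far above as *Dio2*, and 35 other genes were at least as far below as *Gng12*, the closest to the middle of the lower genes. The lower genes ranked from 14th (*Entpd2*) to 42nd (*Gng12*) from the bottom.

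**Figure D2:**
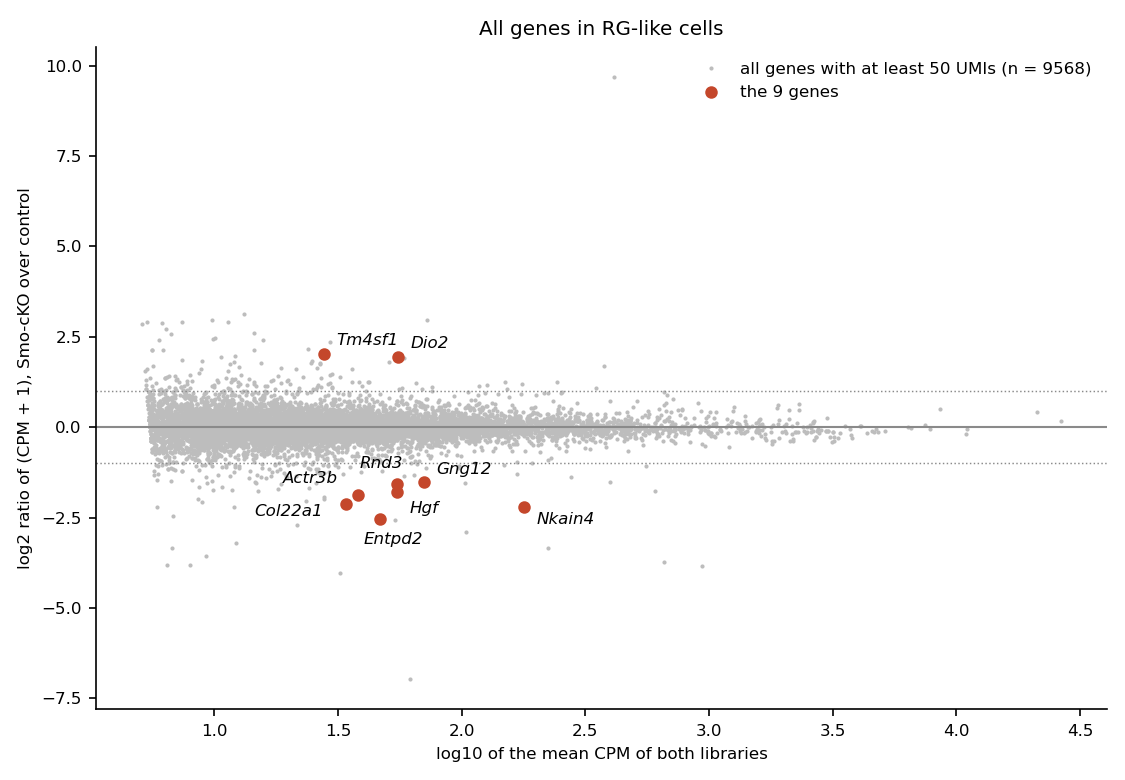
Log2 ratio of CPM + 1, *Smo*-cKO over control, against the log10 mean CPM for each of 9568 genes in RG-like cells (grey) with the 9 genes in red and dotted lines at 2-fold. *Tm4sf1* and *Dio2* lie near 2.04 and 1.95, and the 7 lower genes between -1.52 and -2.54, with *Nkain4* at the highest mean level of the 9. The topmost grey point is *Prm1*.

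*Entpd2*, *Nkain4*, *Col22a1* and *Hgf*, which have membrane or secreted products, were lower in *Smo*-cKO RG-like cells. *Tm4sf1*, also a membrane protein, was higher. *Entpd2* had 336 UMIs in control RG-like cells (80.2 CPM) and 64 in *Smo*-cKO RG-like cells (12.998 CPM, 10.0 to 16.6), a ratio of 0.162 (0.122 to 0.212). *Nkain4* had 1229 UMIs (293 CPM) and 310 UMIs (63.0 CPM, 56.1 to 70.4), a ratio of 0.215 (0.189 to 0.243). It is the best counted of the 9, and its share of RG-like cells with a UMI went from 53.4% to 16.3% at 2900 UMIs per cell. *Col22a1* had 234 UMIs (55.9 CPM) and 60 UMIs (12.2 CPM, 9.30 to 15.7), a ratio of 0.218 (0.161 to 0.291). *Hgf* had 358 UMIs (85.5 CPM) and 117 UMIs (23.8 CPM, 19.7 to 28.5), a ratio of 0.278 (0.224 to 0.343), and its share at 2900 UMIs was 20.1% in control and 5.70% in *Smo*-cKO. They lie on chromosome 2 from 25395874 to 25401321 (*Entpd2*, plus strand), chromosome 2 from 180934772 to 180954699 (*Nkain4*, minus strand), chromosome 15 from 71795795 to 72034227 (*Col22a1*, minus strand) and chromosome 5 from 16553495 to 16620152 (*Hgf*, plus strand).

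The remaining 3 lower genes have products that act inside the cell, on the cytoskeleton or in signalling. *Actr3b* had 252 UMIs in control RG-like cells (60.2 CPM) and 77 in *Smo*-cKO RG-like cells (15.6 CPM, 12.3 to 19.5), a ratio of 0.260 (0.199 to 0.337). *Rnd3* had 347 UMIs (82.8 CPM) and 133 UMIs (27.0 CPM, 22.6 to 32.0), a ratio of 0.326 (0.265 to 0.399). *Gng12* had 439 UMIs (105 CPM) and 177 UMIs (35.9 CPM, 30.8 to 41.7), a ratio of 0.343 (0.286 to 0.409). *Actr3b* lies on chromosome 5 from 25759997 to 25850688 (plus strand), *Rnd3* on chromosome 2 from 51130438 to 51149111 (minus strand) and *Gng12* on chromosome 6 from 66896397 to 67021350 (plus strand). *Entpd2*, *Nkain4* and *Rnd3* share chromosome 2 and *Actr3b* and *Hgf* share chromosome 5, megabases apart in each case.

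In cycling RG-like cells the 9 genes were apart in the same direction. Of 8610 genes with at least 50 UMIs there, 1.30% were at least 2-fold higher and 1.45% at least 2-fold lower in *Smo*-cKO. *Tm4sf1* measured 5.09 CPM in control and 49.2 CPM in *Smo*-cKO cycling cells, a ratio of 9.66 (5.96 to 16.5), and *Dio2* measured 18.2 and 102 CPM, a ratio of 5.61 (4.30 to 7.42). *Entpd2* measured 58.7 and 4.92 CPM, a ratio of 0.0838 (0.0451 to 0.144). *Nkain4* measured 226 and 24.3 CPM, a ratio of 0.107 (0.0827 to 0.137), whose interval lay below that of the non-cycling cells (0.189 to 0.243). The same held for *Gng12*, with a ratio of 0.210 (0.157 to 0.277) in cycling and 0.343 (0.286 to 0.409) in non-cycling cells. The other lower genes had ratios of 0.162 (*Actr3b*), 0.233 (*Hgf*), 0.256 (*Col22a1*) and 0.268 (*Rnd3*). Both classes come from the same 2 libraries and do not count as separate replicates.

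Each cell was thinned once at random to 2900 UMIs, a depth where a cell without a UMI may still express the gene. After thinning, most control RG-like cells and a minority of the *Smo*-cKO ones showed a UMI of any of the 7 lower genes. The mean number of the 7 genes with a UMI was 1.67 in control and 0.479 in *Smo*-cKO RG-like cells. None of the 7 was seen in 15.3% of control and 62.5% of *Smo*-cKO cells, and 3 or more were seen in 23.3% and 1.73%. At that depth PyN-like cells themselves had an expected share with a UMI of 18.1% (control) and 10.6% (*Smo*-cKO) for *Nkain4* and of 29.5% and 21.7% for *Rnd3*, so a UMI of these genes does not mark an RG cell. For the other 5 lower genes this share was at most 1.44% in either library. At least one of *Tm4sf1* and *Dio2* was seen in 7.61% of control and 29.0% of *Smo*-cKO RG-like cells at that depth. Within the *Smo*-cKO library, the 201 RG-like cells with a *Tm4sf1* or *Dio2* UMI showed a mean of 0.383 of the 7 lower genes and the 492 without one a mean of 0.518. In the control, these means were 1.82 (62 cells) and 1.65 (753 cells).

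**Figure D3:**
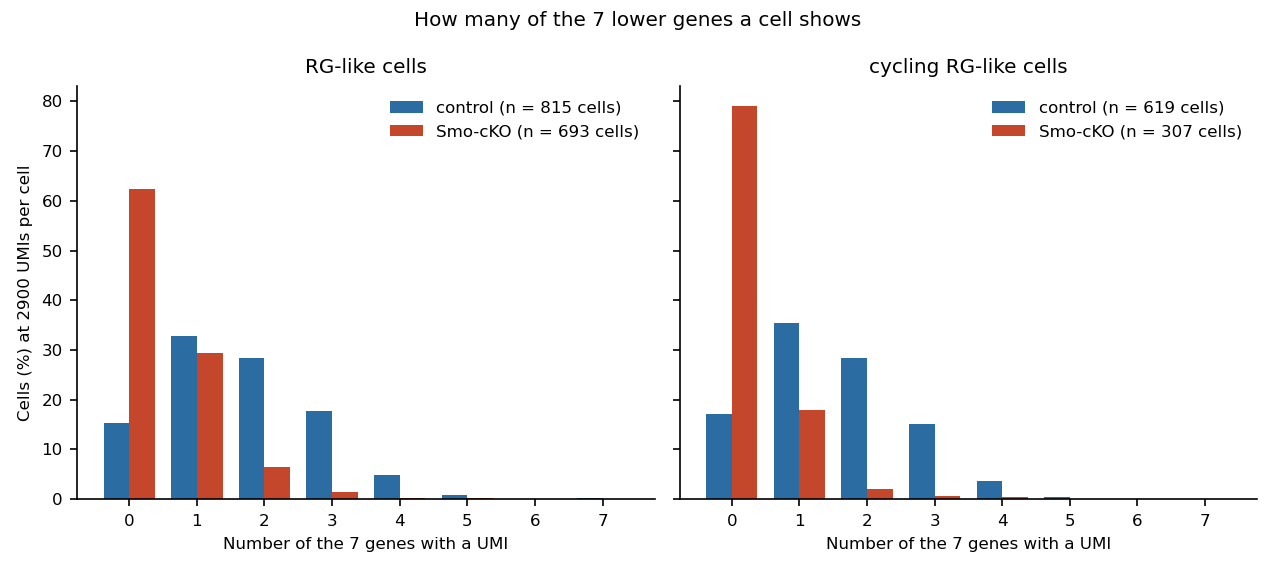
Share of RG-like (left) and cycling RG-like cells (right) in which 0 to 7 of *Entpd2*, *Actr3b*, *Nkain4*, *Col22a1*, *Hgf*, *Gng12* and *Rnd3* had a UMI, with every cell thinned to 2900 UMIs and bars for the control (blue) and the *Smo*-cKO library (red). In RG-like cells 15.3% of control and 62.5% of *Smo*-cKO cells are at 0, and in cycling RG-like cells 17.1% and 79.2%.

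In PyN-IPC-like cells 2.07% of 11489 genes were at least 2-fold higher and 2.12% at least 2-fold lower in *Smo*-cKO, and 6 of the 9 genes were past these limits. *Dio2* measured 2.66 CPM (2.00 to 3.47) in control and 17.7 CPM (15.4 to 20.2) in *Smo*-cKO PyN-IPC-like cells, a ratio of 6.66 (4.92 to 9.15), and *Tm4sf1* measured 1.38 and 4.65 CPM, a ratio of 3.37 (2.11 to 5.51). *Entpd2* had 117 UMIs in control and 5 in *Smo*-cKO PyN-IPC-like cells, a ratio of 0.0708 (0.0226 to 0.170). The ratios of *Hgf* (0.225, 0.127 to 0.376), *Nkain4* (0.327, 0.297 to 0.359) and *Gng12* (0.448, 0.362 to 0.551) were also past 2-fold. *Actr3b* (0.565, 0.455 to 0.697), *Rnd3* (0.582, 0.534 to 0.634) and *Col22a1* (0.672, 0.507 to 0.883) lay within 2-fold of control. For *Actr3b*, *Col22a1*, *Rnd3* and *Nkain4* these intervals lay above those in RG-like cells, so their ratios were closer to 1 in PyN-IPC-like cells. RG markers summed to 4480 CPM in control and 5888 CPM in *Smo*-cKO PyN-IPC-like cells, and cycling markers to 1402 and 613 CPM. The part of this difference in makeup in the PyN-IPC-like ratios was not tested.

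In PyN-like cells 0.942% of 10506 genes were at least 2-fold higher and 1.43% at least 2-fold lower. Only *Actr3b*, *Nkain4* and *Rnd3* reached 50 UMIs there, and none of the 3 was past 2-fold. *Nkain4* measured 72.1 CPM in control and 39.7 CPM in *Smo*-cKO (ratio 0.551, 0.489 to 0.621), *Rnd3* measured 147 and 100.3 CPM (0.680, 0.629 to 0.735) and *Actr3b* measured 4.75 and 2.51 CPM (0.527, 0.319 to 0.856). These intervals were below 1, and for *Nkain4* and *Rnd3* they lay above those of the RG-like cells. *Col22a1* was low in PyN-like cells, with 16 UMIs in control and 22 in *Smo*-cKO. Its ratio there was 1.27 (0.636 to 2.58), and the interval included 1. *Entpd2* had 13 UMIs in control PyN-like cells and 0 in *Smo*-cKO PyN-like cells, with an interval of the ratio from 0 to 0.303. RG markers summed to 775 CPM in control and 908 CPM in *Smo*-cKO PyN-like cells, and *Prm1* measured 23.3 CPM in the *Smo*-cKO ones. The part of RNA picked up from RG cells in such low values was not tested.

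**Figure D4:**
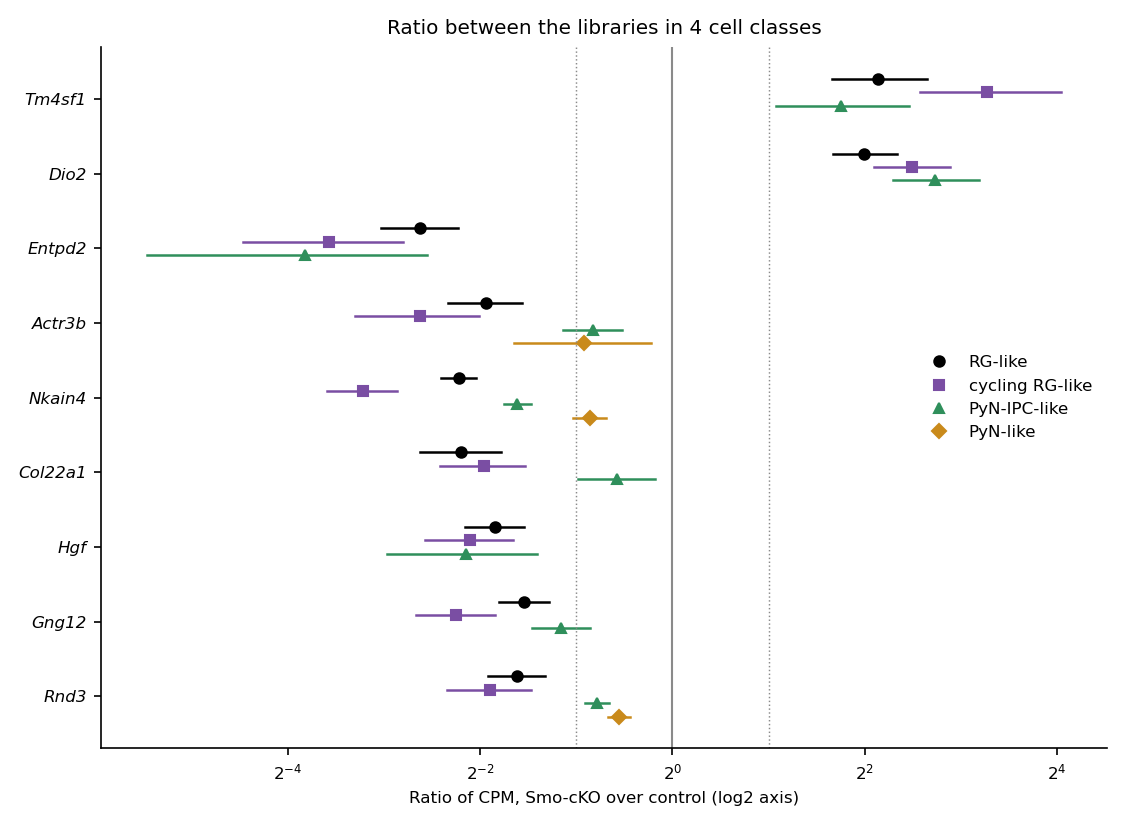
Ratio of CPM, *Smo*-cKO over control, on a log2 axis for each gene in RG-like, cycling RG-like, PyN-IPC-like and PyN-like cells, with symbols for the ratio and lines for the exact conditional 95% interval. Only pairs with at least 50 UMIs are drawn, the solid line marks equal levels and the dotted lines 2-fold. *Rnd3* and *Nkain4* move towards 1 from RG-like to PyN-like cells, while *Dio2* and *Entpd2* stay far from it in PyN-IPC-like cells.

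Outside the excitatory path the values rest on fewer cells and UMIs, and some lay on the same side as in RG-like cells and some did not. *Gng12* measured 70.7 CPM (55.1 to 89.3) in control and 78.7 CPM (66.3 to 92.7) in *Smo*-cKO microglia-like cells, a ratio of 1.11 (0.831 to 1.504). In the few bMIPC-like cells, *Gng12* measured 81.5 CPM (66.9 to 98.4) for the control and 72.0 CPM (50.9 to 98.8) for the 42 *Smo*-cKO cells, with overlapping intervals. *Actr3b* in bMIPC-like cells had 76 UMIs in control (57.4 CPM) and 5 in *Smo*-cKO (9.47 CPM, 3.07 to 22.1). The bMIPC-like ratios of *Rnd3* (0.446, 0.245 to 0.764), *Nkain4* (0.473, 0.215 to 0.940), *Dio2* (3.51, 1.73 to 7.32) and *Tm4sf1* (13.8, 3.01 to 128, from 2 and 11 UMIs) lay on the same side as in RG-like cells. *Col22a1* had 4 and 2 UMIs in bMIPC-like cells (1.25, 0.113 to 8.75) and *Entpd2* 6 and 1 (0.418, 0.00909 to 3.45). *Hgf* had 6 and 0 (interval 0 to 2.13), and all of these intervals included 1. *Tm4sf1* in endothelial-like cells measured 214 CPM in control and 193 CPM in *Smo*-cKO, a ratio of 0.899 (0.584 to 1.36) over 40 and 18 cells. In the 19 and 16 mural-like cells it had 14 and 31 UMIs, or 152 and 321 CPM, a ratio of 2.11 (1.09 to 4.30). *Hgf* in microglia-like cells had 7 UMIs in control (7.07 CPM, 2.84 to 14.6) against 30 UMIs in the *Smo*-cKO library (16.5 CPM, 11.1 to 23.6), a ratio of 2.34 (1.01 to 6.30), opposite in direction to RG-like cells. *Nkain4* in microglia-like cells had 8 and 2 UMIs, a ratio of 0.136 (0.0141 to 0.683). RG markers summed to 674 CPM in control and 1514 CPM in *Smo*-cKO microglia-like cells, and *Prm1* measured 16.0 CPM in the *Smo*-cKO ones. The part of RNA picked up from RG cells in low values outside the RG classes was not tested. In inhibitory-like cells *Rnd3* measured 129 CPM (107 to 154) for the control and 106 CPM (86.9 to 128) for the *Smo*-cKO, with overlapping intervals. *Nkain4* measured 68.1 CPM (52.3 to 87.1) and 24.5 CPM (15.9 to 36.2) there, a ratio of 0.360 (0.217 to 0.580). Inhibitory-like cells held 11 and 1 UMIs of *Hgf* (ratio 0.0824, 0.00192 to 0.567) and 9 and 2 of *Actr3b* (0.202, 0.0212 to 0.974). They held 8 and 0 UMIs of both *Entpd2* and *Col22a1*, with an interval of the ratio from 0 to 0.531 for each. *Dio2* had 7 and 7 UMIs (0.907, 0.271 to 3.03) and *Gng12* 6 and 8 (1.21, 0.368 to 4.23), and these intervals included 1. The makeup of this class differed between the libraries. Its RG markers summed to 3601 CPM in control and 1887 CPM in *Smo*-cKO, and its cycling markers to 1282 and 414 CPM. The part of this in the ratios of inhibitory-like cells was not tested.

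Since the sexes were not balanced, the RG-like cells were also split by sex-linked UMIs. Of the 5 sex-linked genes measured in RG-like cells, *Xist* had 518 UMIs in control and 0 in *Smo*-cKO, 0 were at least 2-fold higher, and *Kdm5d* was nearest to no change (median log2 ratio 0.26). Of the control RG-like cells, 97 held a *Xist* UMI and no UMI of *Ddx3y*, *Eif2s3y*, *Kdm5d* or *Uty*, and 378 held a UMI of these Y-linked genes and none of *Xist*. Of the *Smo*-cKO RG-like cells, 421 were Y-linked-only and 0 held *Xist*. Within the control, the interval of the Y-linked-only to *Xist*-only ratio included 1 for 8 of the 9 genes. The exception was *Gng12*, at 79.9 CPM in *Xist*-only and 114 CPM in Y-linked-only cells (ratio 1.43, 1.00 to 2.08). *Dio2* measured 15.1 CPM in *Xist*-only and 31.1 CPM in Y-linked-only control cells (ratio 2.05, 0.933 to 5.34), from 7 and 55 UMIs. Among Y-linked-only cells of both libraries, the *Smo*-cKO to control ratio was 2.81 (2.10 to 3.83) for *Dio2* and 5.71 (3.22 to 11.0) for *Tm4sf1*. For the lower genes this ratio ran from 0.163 (*Entpd2*) to 0.336 (*Gng12*), all on the same side as in all RG-like cells.

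**Figure D5:**
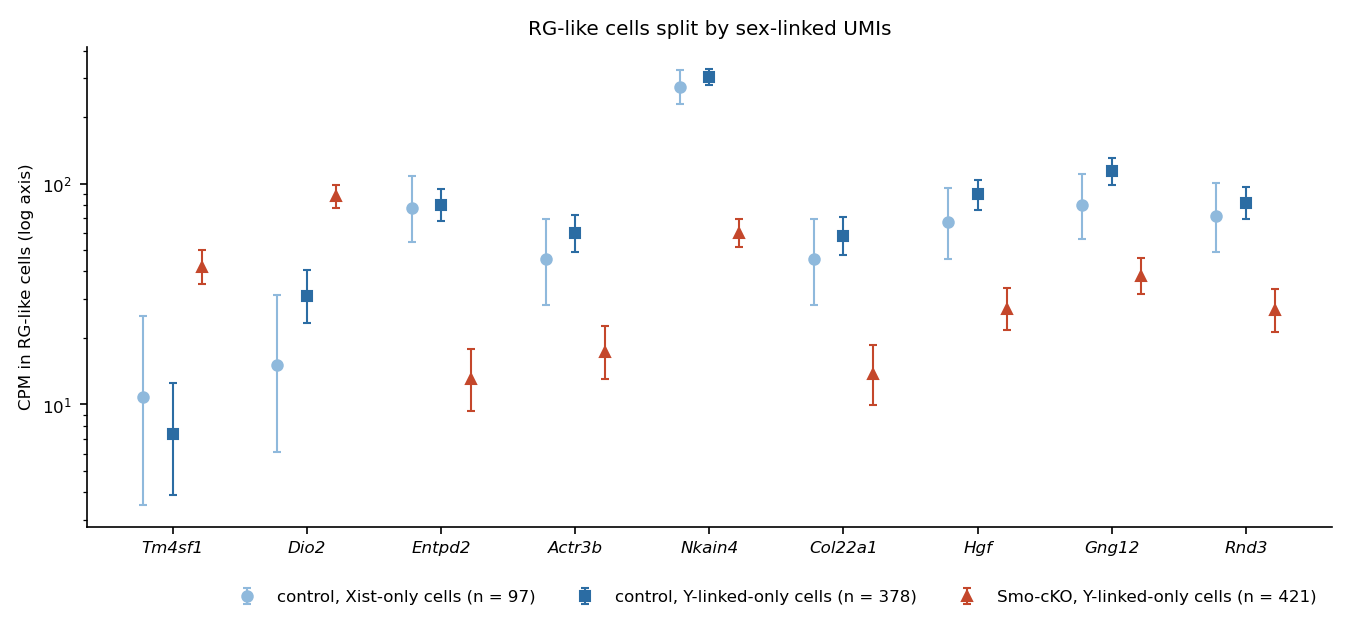
CPM (log axis) of each gene in RG-like cells, with circles for control cells with *Xist* and no Y-linked UMI (97 cells), squares for control cells with a Y-linked and no *Xist* UMI (378 cells) and triangles for *Smo*-cKO cells with a Y-linked and no *Xist* UMI (421 cells), and lines for the exact Poisson 95% interval. For all 9 genes the triangle lies beyond the square's interval, and the intervals of the 2 control groups overlap.

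Some astroglial genes, which mark RG cells that mature towards astrocytes, were also at least 2-fold apart between the libraries in RG-like cells, and others were not. Of 5 other genes measured on the maturing astroglia list, *Aqp4*, a water channel, was 3.58 times control (2.85 to 4.53) and *Cd44*, a matrix receptor, 2.38 times control (1.71 to 3.36), 0 were at least 2-fold lower, and *1500015O10Rik* was nearest to no change (0.904). The median log2 ratio of the 5 was 0.17. *Gfap* itself was at 112 CPM in control and 127 CPM in *Smo*-cKO, and *Gja1* had a ratio of 0.888 (0.711 to 1.11). Split by *Gfap*, 257 control and 274 *Smo*-cKO RG-like cells held a *Gfap* UMI and 681 and 467 did not. *Dio2* differed alike in both, with ratios of 3.96 (2.65 to 6.12) with *Gfap* and 3.97 (3.01 to 5.30) without. *Tm4sf1* was higher in cells with *Gfap* in each library, at 17.2 against 7.42 CPM in control and 60.8 against 34.0 CPM in *Smo*-cKO, and its ratios were 3.54 and 4.58. For the lower genes the ratio with *Gfap* ran from 0.146 (*Entpd2*) to 0.288 (*Hgf*), and without *Gfap* from 0.169 (*Entpd2*) to 0.387 (*Gng12*).

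The partners and close relatives of the 9 genes mostly measured within 2-fold of control in RG-like cells, as did most genes. Of the 9568 genes, only 2.05% were at least 2-fold higher and 1.60% at least 2-fold lower. The counts for the lists below are therefore no trait of the partners. *Dio2* stands in thyroid hormone activation and response. Of the 7 other genes measured on that list, 0 were at least 2-fold apart (median log2 ratio 0.21), although *Klf9*, a thyroid hormone response gene, was close to it at 21.2 CPM in control and 42.0 CPM in *Smo*-cKO (ratio 1.98, 1.54 to 2.57). The transporter gene *Slco1c1*, the receptor gene *Thra* and the coactivator gene *Ncoa1*, nearest to no change, had ratios of 1.15, 1.23 and 1.02. Of the 7 other ectonucleotidases and purine receptors measured, 0 were at least 2-fold apart (median -0.23), and *Adora2b* was nearest to no change (0.993). *Entpd1*, *Entpd5* and *Entpd6*, relatives of *Entpd2*, had ratios of 0.851, 1.34 and 0.831.

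The same held for the cytoskeletal and signalling genes. All 9 other genes of the Arp2/3 complex, which nucleates branched actin, lay within 2-fold of control (median log2 ratio 0.09). *Actr3*, the main ARP3 gene, measured 72.8 CPM in control and 81.8 CPM in *Smo*-cKO (ratio 1.12, 0.966 to 1.31), beside the 0.260 of its paralog *Actr3b*, and *Arpc4* was nearest to no change (0.966). Of 9 other G protein gamma and beta subunits *Gng11* was higher (2.21, 1.67 to 2.97), 0 were lower and *Gng3* was nearest to no change (1.04), with a median of 0.05.

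Among genes of the cell surface and matrix, 9 other Na,K-ATPase subunits and NKAIN partners were all within 2-fold (median 0.11). *Nkain2*, another family member, measured 1.76 times control (1.35 to 2.33), against 0.215 for *Nkain4*. Of 3 other genes of HGF-MET signalling measured, 0 were at least 2-fold apart (median -0.09), with *Gab1*, a MET adaptor, at 0.612 (0.479 to 0.780) and *Spint2* nearest to no change (0.942). The receptor gene *Met* did not reach 50 UMIs in RG-like cells. Of 7 other matrix genes *Col9a3* was higher (2.02, 1.42 to 2.93), 0 were lower, and *Ptprz1* was nearest to no change (0.919, median 0.26). No other gene of the *Tm4sf1* family on the list reached 50 UMIs.

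Of the 8 genes of the Hedgehog list, *Smo* and *Ptch1* were at least 2-fold lower, 0 were higher and *Sufu* was nearest to no change (1.07, median -0.43). Of 8 dissociation and stress genes *Egr1* was lower (0.494, 0.414 to 0.589), 0 were higher and *Jun* was nearest to no change (0.821, median -0.33). Their part in the members' differences was not tested. Of 5 genes that mark cortical position, 0 were at least 2-fold apart (median -0.01), with *Nr2f1* nearest to no change (0.996). The 5 red blood cell markers summed to 3443 CPM in control and 257 CPM in *Smo*-cKO RG-like cells, and 99.5% and 87.7% of the hemoglobin UMIs came from 5 and 3 cells. Without them all 9 genes stayed at least 2-fold apart, but so few of the 938 and 741 cells could hardly change the sums. The part of blood RNA in the members' differences was not tested.

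Genes with a similar profile were sought over 16 profiles, 8 classes in each library, by Pearson's r of log2(CPM + 10) among 11640 genes with at least 200 UMIs. The profiles share libraries and depth, and r is given as a description. Most like *Tm4sf1* were *Cav2* (0.98), *Fkbp10* (0.98) and *Lamc1* (0.95), and *Cav2* had 11.7 CPM in control and 41.8 CPM in *Smo*-cKO RG-like cells. Most like *Dio2* were *Spink2* (0.95), *1110032F04Rik* (0.94) and *Bmp7* (0.92), a ligand of the BMP pathway at 12.4 CPM in control and 20.5 CPM in *Smo*-cKO RG-like cells.

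*Entpd2* and *Col22a1* were each among the 3 genes most like the other (r 0.94). *Rbm20*, a splicing regulator, headed the list for both (0.95 and 0.97) and was the third for *Hgf* (0.93), and it measured 15.3 CPM in control and 5.48 CPM in *Smo*-cKO RG-like cells. *Crb2*, a polarity gene of the apical membrane, was the third for *Entpd2* (0.94) and *Steap1* the second for *Col22a1* (0.96). *Hgf* was most like *Creg2* (0.96) and *Plxnc1* (0.94), a semaphorin receptor. *Actr3b* was most like *Ltbp1* (0.93), *Tst* (0.91) and *Plscr4* (0.91), and *Nkain4* was most like *Plekha6* (0.92), *Abcb9* (0.91) and *Ubl5* (0.91). *Gng12* was most like *9430038I01Rik* (0.95), *Gm26669* (0.93) and *2610001J05Rik* (0.91), and *Rnd3* was most like *Vta1* (0.94) and *Zfp60* (0.94).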

How the data were processed

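The deposited tables hold raw UMI counts, 1 table with both mouse libraries and 1 with ferret cells, made by the authors from 10× reads. The submitters' processing notes name Cell Ranger, StringTie, Seurat 3 and the build mm10. The paper's limits of 750 to 5000 genes and under 10% mitochondrial transcripts left 10498 control cells (51657121 UMIs) and 7209 *Smo*-cKO cells (42057782 UMIs). The mouse column names show no sample, so genotypes were assigned by the number of barcodes per suffix. Replicate spread could not be measured.

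The 9 genes, the marker lists and the other gene lists were chosen with earlier results of these data known. None of the 9 is a marker. The gates were set after marker values had been seen. They need 4 markers for microglia-like, endothelial-like, mural-like and inhibitory-like cells and 3 for bMIPC-like, PyN-IPC-like and PyN-like cells, and the first that applied was taken. At the RG gate, 25 control and 31 *Smo*-cKO cells fell 1 marker short and 48 and 33 just met it. No doublet caller was run, and the gates leave out RG-like cells with more than 1 marker of another neural class.

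UMIs were summed per class and library as CPM with exact Poisson intervals, ratios had exact conditional binomial intervals, and shares of cells without an interval are plain percentages. Genes of each list were named if at least 2-fold apart, with the one nearest to no change, among genes with at least 50 UMIs, and relatives of a member were named in addition after their values were seen. A few genes that met these rules, and 1 gene list, are not reported here. Cells were thinned without replacement (seed 1). The calculation was tested on simulated Poisson counts. These hold no spread between cells or embryos, so they check the arithmetic and not the differences between the libraries. The tools were pandas 2.3.3, scipy 1.17.1, numpy 2.4.6 and matplotlib 3.10.9 under Python 3.11.15. Coordinates are those of GENCODE M21 for the symbol, which held 16568 of the 17170 symbols.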

Additional observations from a re-analysis of the deposited data

Results flagged for a closer look

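*Hgf* had a log2 ratio of 1.22 in microglia-like cells and of -1.85 in RG-like cells, so the 2 classes lay on opposite sides of equal levels, each with 1 library per genotype. The microglia-like value rests on 7 control and 30 *Smo*-cKO UMIs, its interval begins close to 1, and the difference between the classes was not tested.

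The ferret cells (E39 cortex, 23237 cells within the limits, 310 of them RG-like or cycling RG-like by the same markers) entered no comparison, and 8 of the 9 symbols were matched there. In 5 of the 8 the RG-like level lay above that of the 15641 PyN-like cells with no overlap of intervals, as it did for 25.2% of the 17398 ferret genes with at least 10 UMIs in these classes. *DIO2* was at 41.4 CPM in ferret RG-like cells (30.7 to 54.6) and 1.99 CPM in PyN-like cells, and *TM4SF1* was at 7.46 CPM (3.41 to 14.2) and 0.225 CPM. *HGF* was at 38.9 CPM (28.6 to 51.8) and 5.80 CPM, and *GNG12* was at 91.1 CPM and 18.6 CPM. *RND3* was at 132.5 CPM in RG-like and 57.4 CPM in PyN-like cells, the opposite order to the mouse control, and peaked at 289 CPM in PyN-IPC-like cells. *ACTR3B* was at 81.2 CPM in RG-like and 87.7 CPM in PyN-like cells, *COL22A1* had 2 UMIs in RG-like cells, and *ENTPD2* had 0 in 310 cells, which allows a share of cells with a UMI of up to 0.968%. *TM4SF1* was highest in the 176 endothelial-like cells, at 220.1 CPM. Ferret barcodes carry no name that matches a labelled sample, so all ferret cells are given as 1 set.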

How the results depend on the processing

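No paired analysis was possible because there was 1 library per genotype. For RG-like cells, 11 other settings and 4 more added after seeing the data kept the direction of every one of the 9 genes, and all 9 stayed at least 2-fold apart, except that *Rnd3* had no value after subtraction of the UMIs per PyN-like cell, which exceeded its RG-like UMIs in both libraries. These settings reuse the libraries on which the 9 genes were selected, so the kept direction is no independent check of the differences. Leaving out RG-like cells with a UMI of a maturing astroglia gene (330 control and 137 *Smo*-cKO cells left) moved the log2 ratio of *Entpd2* from -2.63 to -3.85, of *Col22a1* from -2.20 to -2.78, of *Hgf* from -1.85 to -2.39, of *Dio2* from 2.00 to 2.56 and of *Tm4sf1* from 2.14 to 2.82. The moved values rest on far fewer cells and carry no interval, and the part of counting error and depth in the moves was not tested. With Y-linked-only cells *Dio2* was at 1.49. In PyN-IPC-like cells the number of genes at least 2-fold apart was 7 with thinned cells and 5 with a stricter gate, against 6. In the control, 6 genes were highest in RG-like or cycling RG-like cells when 2 UMIs were needed per cell and 7 at 2900 UMIs, against 8. The background was set by its thresholds. The genes at least 2-fold higher in *Smo*-cKO RG-like cells numbered 417 with no minimum of UMIs, 54 with at least 200 UMIs and, at 1.5-fold, 606, against 196, and those lower numbered 302, 56 and 527, against 153. Depth limits *Tm4sf1* most, with 43 control RG-like UMIs, and values in PyN-like, bMIPC-like and vascular cells rest on few UMIs or cells.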

Other observations

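The unassigned cells met no gate and showed markers of several classes. Their medians were 8 RG, 2 PyN-IPC and 2 PyN markers in the control and 8.5, 1.5 and 2 in the *Smo*-cKO library. Their RG markers summed to 12255 CPM in control and 18107 CPM in *Smo*-cKO, so their makeup differed. They come from the same libraries as the RG-like cells and are no replicate of them. The genes named below lay on the same side as in RG-like cells. Among these 1797 control and 1102 *Smo*-cKO cells, *Tm4sf1* measured 2.85 CPM in control and 26.8 CPM in *Smo*-cKO, and *Dio2* measured 11.2 and 62.7 CPM. *Entpd2* measured 19.0 and 2.63 CPM, *Nkain4* 133 and 33.4 CPM, and *Rnd3* 110 and 48.5 CPM.

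*Gng12* and *Rnd3* were also detected in the 19 control and 16 *Smo*-cKO mural-like cells. *Gng12* had 2 UMIs there in control and 15 in *Smo*-cKO, and *Rnd3* had 11 and 23.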
